A study of Homo sapiens with 4 samples.

Results

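The genes described here are those of core autophagy: the complexes that start an autophagosome, the lipid-binding and membrane proteins that expand it, the enzymes that attach ubiquitin-like proteins to it, and some proteins of its fusion with the lysosome. A list of 36 genes was drawn up by function, and its members were looked up in the probe annotation of the arrays. A member was measured where a row of the table carries its symbol and no other. For genes with several such rows the one of highest mean was kept, but every measured member had 1 row. In this way 34 of the 36 were measured, of 22465 genes in all. RUBCN and VMP1 share their rows with another gene and were not analysed here.

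MHCC-LM3 is an established line of human hepatocellular carcinoma, and its RNA was hybridised to Affymetrix whole-transcript arrays. The 2 groups were cells given zerumbone at 50 µM, a sesquiterpene of ginger plants, and cells given the solvent DMSO, each for 24 h and with 2 arrays. Both groups are of the same line in the same medium, so the treatment is the sole labelled difference. The labels do not tie the arrays to different cultures. The p-values therefore rest on a spread between arrays that may be technical, and the number of arrays limits the precision. The sample titles are numbered in sequence by group, so the order of handling and the treatment cannot be told apart.

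In autophagy a cell encloses cytoplasm in a double membrane and delivers it to lysosomes. The ULK kinase complex starts the process, a class III phosphatidylinositol 3-kinase (PI3K) complex marks the membrane with the lipid PI3P, and WIPI proteins read that lipid and bring in the ATG2 lipid transfer proteins. Conjugating enzymes then attach ATG12 to ATG5 and proteins of the ATG8 family to the lipid phosphatidylethanolamine. In liver, autophagy is known to clear damaged mitochondria, protein aggregates and lipid droplets.

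Values are the deposited log2 expression values, and differences are zerumbone minus DMSO, in log2 units. "Rose" and "fell" are used of genes with a Benjamini-Hochberg adjusted p under 0.05 in limma, adjusted over all 22465 genes and two-sided. A gene was at background level when it lay, on all arrays, under the 95th percentile of 23 control rows that match no human sequence. Levels of different genes are not compared, because probes differ in how they bind. As RNA from a whole culture was measured, fewer cells expressing a gene and less RNA per cell cannot be told apart.

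Across all genes the arrays of a group correlated at 0.998 to 0.999 (Pearson's r, across genes, which are not independent replicates), and arrays of different groups at 0.968 to 0.969. The median difference of all genes was 0.07, and 22 of the 23 background rows were higher under zerumbone, by a median of 0.0785. Of hepatocyte markers 8 of 9 measured were at background level, among them AFP, and ALB passed the limit on 1 zerumbone array only, so the arrays show few defining markers of the labelled tissue. The epithelial keratins KRT8 and KRT18 averaged 15.87 ± 0.049 (SD, n = 2) and 15.04 ± 0.081 (SD, n = 2) under DMSO, and fell by 1.31 and 0.75 under zerumbone (limma adjusted p = 0.000279 and 0.00757). The other epithelial markers were mixed. EPCAM was at background level on all arrays, while KRT19 and CDH1 fell by 1.66 and 0.48 (limma adjusted p = 7.98e-05 and 0.0190). Of markers of other cells 5 of 6 leukocyte, 4 of 5 endothelial and 3 of 5 fibroblast and stellate genes were at background level. The exceptions included CD68, which also encodes a lysosomal protein (0.93), KDR (-1.93) and LUM (-1.22), while the pan-leukocyte marker PTPRC was at background level on all 4 arrays. The part of these shifts in the results below was not tested.

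Most of the core autophagy genes were higher after zerumbone. Of the 34 measured members 22 rose, 1 fell and 11 did not pass. Among all genes 18.4% were called higher and 17.7% lower. Higher genes made up 51.0% of all calls, and 41.0% with the arrays centred over all transcript clusters, where 19 members rose. Of genes above background 30.7% were called higher and 33.0% lower. ATG9B and ATG16L2 were at background level on all arrays, and each of the other 32 members passed the limit in both groups on at least 1 array. Of the 32 members above background 22 rose (68.8%), and their median difference was 0.66 against 0.00 for all 11487 genes above background.

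A rise of at least 1 log2 unit was seen in 9 of 32 members above background (28.1%), against 9.69% of genes above background. These 9 were RB1CC1, ATG4A, ATG12, WDR45, ATG14, WIPI2, EPG5, PIK3C3 and ATG101. Both zerumbone arrays lay above both DMSO arrays for 28 of the 34 members (82.4%), and 43.6% of all genes showed that pattern. Both lay below for 5 members, against 26.3% of all genes, and for ATG16L2 the groups overlapped. Of the 32 members above background 27 lay above and 5 below. Of the 11487 genes above background 4903 lay above and 4955 below. In the plot of cumulative distributions the line of the members lies to the right of that of all genes above background. Over the 32 members, the level under DMSO and the difference were weakly related (Pearson's r = 0.22, Spearman's rho = 0.16, across genes measured on the same arrays).

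**Figure D1:**
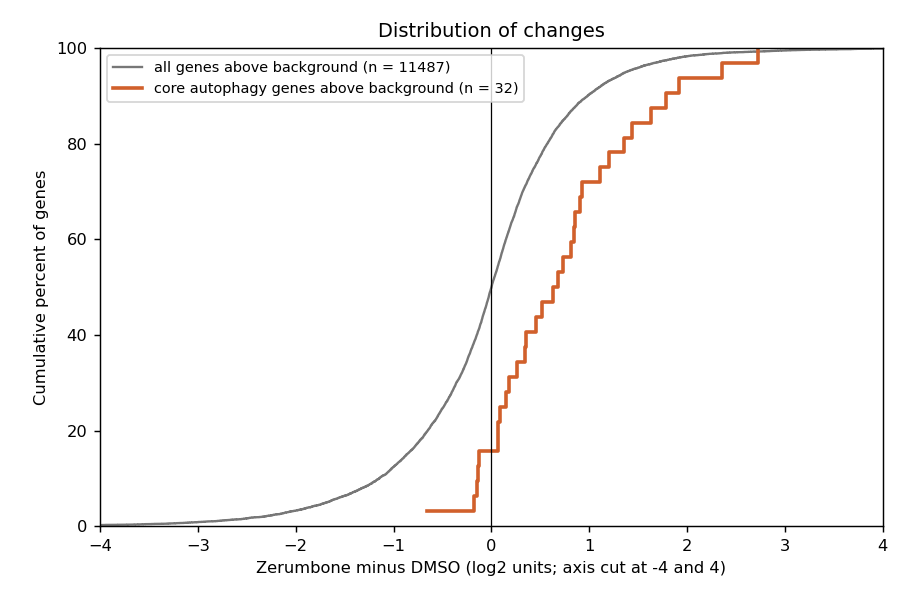
Cumulative percent of genes (y axis) against the zerumbone minus DMSO difference in log2 units (x axis, cut at -4 and 4), for the 32 core autophagy genes above background and for all 11487 genes above background. The median is 0.66 for the former and 0.00 for the latter.

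In the ULK complex 5 of 5 members rose, beside 30.7% of genes above background called higher, with a median difference of 0.93. The call of ATG13 depended on the setting, as given below. RB1CC1, the large scaffold also called FIP200 on which the complex assembles, read 11.41 and 11.40 on the DMSO arrays and 14.08 and 14.20 on the zerumbone arrays. The groups lay far apart and the arrays of each were close to each other. Its difference of 2.73 ± 0.071 (SE), a 6.63-fold rise, was the largest of all members and ranked 88 among the 22465 genes (limma adjusted p = 4.58e-05).

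ATG101, which binds and stabilises ATG13, read 8.07 and 8.13 under DMSO and 9.17 and 9.26 under zerumbone, a 2.16-fold rise. The kinase genes moved by similar amounts. ULK1 read 6.02 and 5.99 under DMSO and 6.96 and 6.92 under zerumbone, a difference of 0.93 with a 95% interval from 0.77 to 1.09. ULK2 read 5.89 and 5.93, then 6.79 and 6.66, a difference of 0.82 (0.63 to 1.01). In none of these 3 genes did the groups overlap, and the limma adjusted p was at most 0.000934.

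ATG13, the adaptor between the kinases and the scaffold, changed least in the complex. It read 10.45 and 10.57 under DMSO and 10.75 and 10.80 under zerumbone, a difference of 0.26 (limma adjusted p = 0.0452). Leaving out any 1 array ended the call, at an adjusted p of 0.227 without DMSO replicate 1, 0.0919 without DMSO replicate 2, 0.0870 without zerumbone replicate 1 and 0.130 without zerumbone replicate 2. It was also lost in each of 3 other scalings, at adjusted p from 0.0655 to 0.192, so the rise of ATG13 was not separable from the spread of the arrays in those settings.

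**Figure D2:**
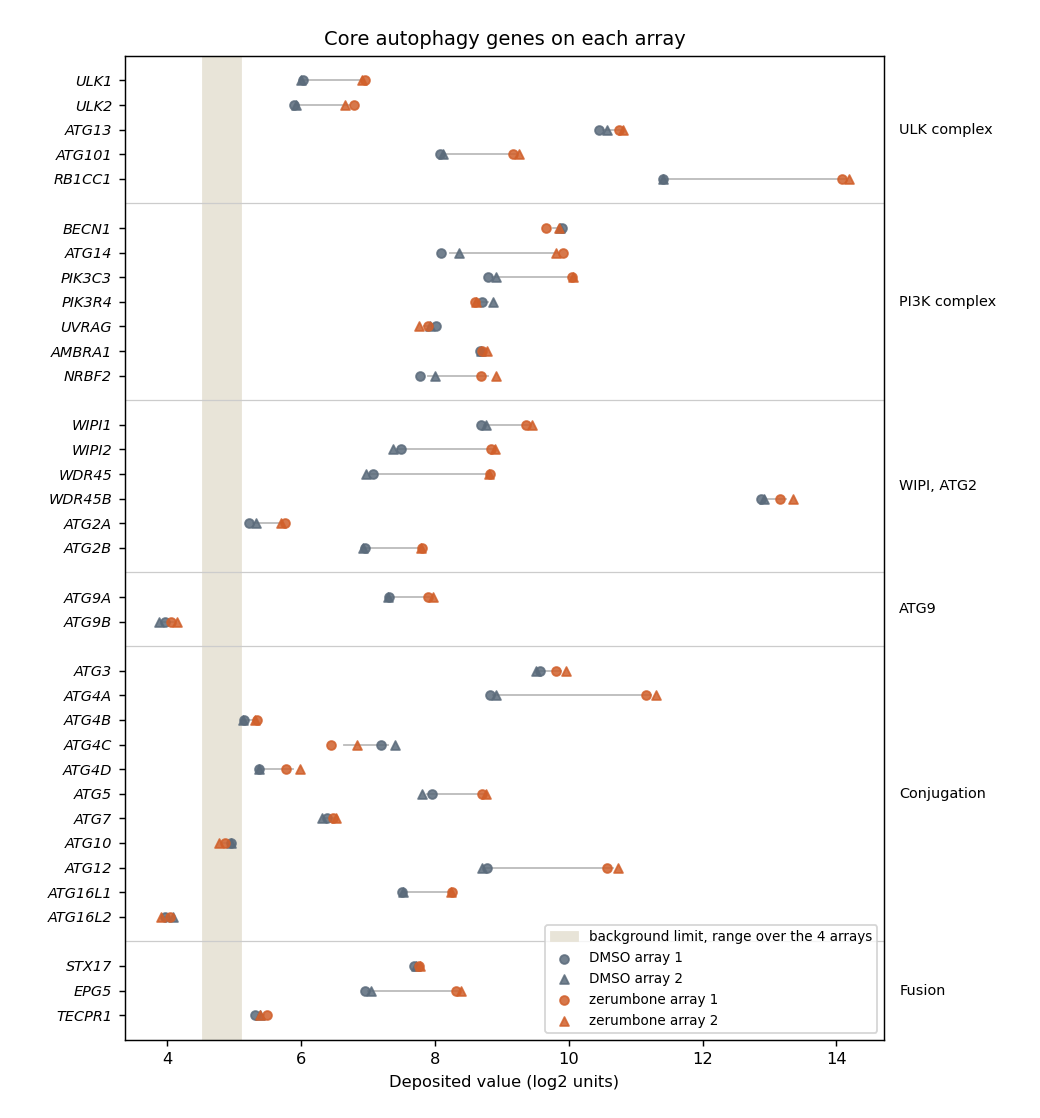
Deposited log2 value (x axis) of each measured core autophagy gene (rows, grouped by step) on the 2 DMSO arrays (grey) and the 2 zerumbone arrays (orange); circles are array 1, triangles array 2, grey lines join the group means, and the shaded band is the range over arrays of the background limit. RB1CC1, ATG4A, ATG12 and WDR45 show the widest gaps between groups, and ATG9B and ATG16L2 lie under the band.

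The PI3K complex was divided. Of its 7 measured members, all above background, 3 rose and 4 did not pass, beside 30.7% of genes above background called higher. The median difference was 0.06, close to the 0.07 of all genes, so the count alone does not set the complex apart. The 3 that rose are the catalytic subunit PIK3C3 (VPS34) and a pair of subunits of the autophagy-specific form of the complex, ATG14 and NRBF2. ATG14, which directs the kinase to the site of autophagosome formation, read 8.10 and 8.36 under DMSO and 9.91 and 9.82 under zerumbone. That is a 3.10-fold rise, with a difference of 1.63 ± 0.108 (SE; limma adjusted p = 0.000348). PIK3C3 read 8.79 and 8.92, then 10.04 and 10.07, a 2.30-fold rise (adjusted p = 0.000270). NRBF2, which binds ATG14 and enhances the kinase, read 7.778 and 8.005, then 8.682 and 8.915, a 1.88-fold rise (adjusted p = 0.00361). In each of these the zerumbone arrays lay above the DMSO arrays.

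BECN1, PIK3R4, UVRAG and AMBRA1 did not pass. BECN1 (Beclin 1), a regulatory subunit found with PIK3C3 in both the autophagy-specific and the endosomal form, read 9.89 and 9.87 under DMSO and 9.66 and 9.86 under zerumbone (adjusted p = 0.347 in limma). Its 95% interval, from -0.35 to 0.11, lies far under the rise of ATG14. PIK3R4 (VPS15), the pseudokinase that anchors PIK3C3 in both forms, differed by -0.18 (-0.38 to 0.02), and UVRAG, which takes the place of ATG14 in the endosomal form, by -0.14 (-0.35 to 0.06). AMBRA1, a scaffold that links BECN1 to ubiquitin ligases, differed by 0.06 (-0.10 to 0.23).

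ATG14 and UVRAG bind BECN1 in a mutually exclusive way, so their ratio was followed from array to array. The log2 value of ATG14 minus that of UVRAG was 0.08 and 0.43 on the DMSO arrays and 2.00 and 2.05 on the zerumbone arrays, a shift of 1.77 toward ATG14. The groups did not overlap. An exact two-sided permutation test of 2 arrays against 2 cannot go below p = 0.333, the value reached here. This pair was chosen after its values were seen.

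The RefSeq table has no promoter window for UVRAG. Among the other members of the PI3K complex, ATG14 and NRBF2 hold the E-box core CACGTG. Only NRBF2 holds the longer form TCACGTGA. Elements of the CLEAR type, which contain this core, are read by the lysosomal regulator TFEB and its relatives, but the core alone does not identify such an element. PIK3C3, which also rose, holds neither form. The core CACGTG was in 8.33% of member windows and 7.26% of all windows, and its part in these rises was not tested. For ATG14 and NRBF2 the 250 bases before the RefSeq start (GRCh38.p14) are shown, with the matches to CACGTG or TCACGTGA in capitals. The first is chr14:55411831-55412080, minus strand, and the second chr10:63133078-63133327, plus strand, each written 5′ to 3′ along the gene.
ATG14: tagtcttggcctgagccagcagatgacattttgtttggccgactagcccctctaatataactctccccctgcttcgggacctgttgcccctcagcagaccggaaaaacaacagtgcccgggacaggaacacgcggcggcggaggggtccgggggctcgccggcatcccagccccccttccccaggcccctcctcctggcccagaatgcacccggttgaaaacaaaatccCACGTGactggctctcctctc
NRBF2: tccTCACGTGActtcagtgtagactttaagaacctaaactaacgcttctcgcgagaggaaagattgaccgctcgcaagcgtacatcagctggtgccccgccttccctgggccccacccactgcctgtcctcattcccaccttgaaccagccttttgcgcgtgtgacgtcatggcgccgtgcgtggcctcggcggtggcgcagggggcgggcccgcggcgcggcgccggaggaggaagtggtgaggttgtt

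All 6 genes of the WIPI and ATG2 step rose, beside 30.7% of genes above background called higher, with a median difference of 0.77. The calls of WDR45B and ATG2A depended on the setting, as given below. WDR45 (WIPI4), which couples PI3P to ATG2, read 7.08 and 6.98 under DMSO and 8.82 and 8.81 under zerumbone, a 3.45-fold rise (limma adjusted p = 8.22e-05). WIPI2, which recruits the ATG16L1 complex to the membrane, read 7.49 and 7.38, then 8.85 and 8.90, a 2.71-fold rise (adjusted p = 0.000154). In both genes the arrays of a group differed far less than the groups did. WIPI1, the other PI3P reader of that pair, read 8.69 and 8.77, then 9.37 and 9.46, a 1.61-fold rise (adjusted p = 0.00147).

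WDR45B (WIPI3), the nearest relative of WDR45, moved less, by 0.35 from 12.90 ± 0.025 (SD, n = 2) to 13.25 ± 0.136 (SD, n = 2), with an adjusted p of 0.0314. Its adjusted p was 0.161 without DMSO replicate 1, 0.133 without DMSO replicate 2 and 0.0700 without zerumbone replicate 2, and 0.0686 and 0.106 under 2 other scalings, so the call was lost there. The lipid transfer genes ATG2A and ATG2B rose by 0.45 (0.26 to 0.64) and 0.86 (0.70 to 1.01). ATG2A lost its call without DMSO replicate 1, at an adjusted p of 0.0607.

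ATG9A, the scramblase carried by the vesicles that seed the membrane, read 7.31 and 7.30 under DMSO and 7.89 and 7.97 under zerumbone. The groups did not overlap, and the 1.55-fold rise passed in limma (adjusted p = 0.00149). Its paralogue ATG9B was at background level on all 4 arrays, at 3.92 under DMSO and 4.10 under zerumbone (adjusted p = 0.117). No size of change is given for it.

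The conjugation genes moved unequally. Of 11 members 6 rose, 1 fell and 4 did not pass, and the median difference was 0.34. Among genes above background 30.7% were called higher and 33.0% lower. ATG4A, one of the proteases that trim ATG8 proteins before conjugation and release them from the lipid, read 8.82 and 8.92 under DMSO and 11.16 and 11.31 under zerumbone. Its 5.13-fold rise (difference 2.36 ± 0.082 SE, limma adjusted p = 7.52e-05) was exceeded among the members only by RB1CC1. ATG12, the ubiquitin-like protein that is joined to ATG5, read 8.78 and 8.70, then 10.58 and 10.74. It rose 3.78-fold (difference 1.92 ± 0.082 SE, adjusted p = 0.000105).

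The promoter windows of ATG4A and ATG12 are shown because these had the largest rises among members with a window in the RefSeq table. Both hold none of the 6 motifs searched, so no letter is in capitals. They are the 250 bases before the start at chrX:108091528-108091777, plus strand, and chr5:115841566-115841815, minus strand (GRCh38.p14).
ATG4A: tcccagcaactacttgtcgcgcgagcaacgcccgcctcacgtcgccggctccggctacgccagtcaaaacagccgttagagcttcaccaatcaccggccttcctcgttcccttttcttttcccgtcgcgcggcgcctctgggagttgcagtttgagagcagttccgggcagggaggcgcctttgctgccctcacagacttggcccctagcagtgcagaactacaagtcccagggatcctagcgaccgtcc
ATG12: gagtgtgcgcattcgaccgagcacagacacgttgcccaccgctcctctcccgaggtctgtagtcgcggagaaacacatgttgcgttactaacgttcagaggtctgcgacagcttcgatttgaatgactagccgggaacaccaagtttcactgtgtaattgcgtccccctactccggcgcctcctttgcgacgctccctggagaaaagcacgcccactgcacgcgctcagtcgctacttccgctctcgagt

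The acceptor of ATG12, ATG5, read 7.95 and 7.81 under DMSO and 8.70 and 8.76 under zerumbone, a 1.80-fold rise. ATG16L1, which binds the ATG12-ATG5 conjugate and places it on the membrane, read 7.51 and 7.52, then 8.26 and 8.25, a 1.66-fold rise. The limma adjusted p-values were 0.000945 and 0.000669, and the groups did not overlap in either gene. All 3 members of the ATG12, ATG5 and ATG16L1 assembly thus rose, ATG12 the most.

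The enzymes that build that conjugate did not pass. ATG7, the E1-like enzyme of both conjugation systems, read 6.39 and 6.32 under DMSO and 6.48 and 6.53 under zerumbone, a difference of 0.15 with a 95% interval from -0.02 to 0.32 (limma adjusted p = 0.146). ATG10, the E2-like enzyme of ATG12, was under the background limit on 1 array of each group, and its adjusted p was 0.167. ATG3, the E2-like enzyme of the ATG8 proteins, rose by 0.34 (adjusted p = 0.0278), from 9.58 and 9.51 to 9.81 and 9.96. ATG3 no longer passed without DMSO replicate 1 (0.109), without DMSO replicate 2 (0.159) and without zerumbone replicate 2 (0.0747).

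The ATG4 proteases went in different directions. ATG4C was the 1 member that fell, reading 7.20 and 7.40 under DMSO and 6.44 and 6.83 under zerumbone, a difference of -0.66 ± 0.153 (SE; limma adjusted p = 0.0254). The zerumbone arrays lay below the DMSO arrays but differed from each other by more than in any other member (SD 0.276). It no longer passed without DMSO replicate 1 (0.0739), without DMSO replicate 2 (0.143) and without zerumbone replicate 1 (0.0547). ATG4D read 5.37 and 5.37, then 5.78 and 5.99, and rose by 0.51 (0.28 to 0.75). Its call was lost without DMSO replicate 1 (0.0699) or DMSO replicate 2 (0.0711). ATG4B, regarded as the protease with the broadest activity on ATG8 proteins, read 5.15 and 5.13, then 5.34 and 5.31, and did not pass (difference 0.18, 0.02 to 0.34, adjusted p = 0.0774). Under DMSO both ATG4B and ATG4D lay near the background limit, so the sizes of their changes are uncertain. ATG16L2, a paralogue of ATG16L1, was at background level on all 4 arrays.

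Paralogues were compared through the log2 difference between them on each array. In all 10 pairs of the ULK, WIPI1 and WIPI2, WDR45 and WDR45B, ATG2 and ATG4 genes this value did not overlap between groups, also where the shift was small. Groups did not overlap, in either direction, for 69.9% of all genes taken singly. Of the 11487 genes above background, the groups overlapped in only 1629. The share over other pairs of genes was not computed, so nothing particular to paralogues is read from the count. The exact two-sided permutation p was 0.333 in every pair, the smallest this design allows, and stays 0.333 after adjustment over the pairs. The shift was widest between ATG4A and ATG4C, at 3.02 log2 units toward ATG4A, and 2.18 between ATG4A and ATG4B. As ATG4B and ATG4D lay near the background limit, the sizes of shifts that involve them are uncertain. WDR45 gained 1.44 on WDR45B and ULK1 gained 0.12 on ULK2, while the value of WIPI1 minus that of WIPI2 changed by -0.76.

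Of the 3 members that act in fusion with the lysosome 1 rose, a share near the 30.7% of genes above background called higher. EPG5, a tether that binds lysosomal RAB7 and autophagosomal ATG8 proteins, read 6.96 and 7.04 under DMSO and 8.32 and 8.39 under zerumbone. The 2.55-fold rise had a limma adjusted p of 0.000165. STX17, the SNARE that marks closed autophagosomes, differed by 0.07 (-0.09 to 0.23), and TECPR1, a tether that binds the ATG12-ATG5 conjugate, by 0.09 (-0.09 to 0.27). For both the interval lies well under the rise of EPG5. TECPR1 averaged 5.35 under DMSO, near the background limits of 4.54 and 5.10 on those arrays. It thus has little signal from which a change could be read.

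**Figure D3:**
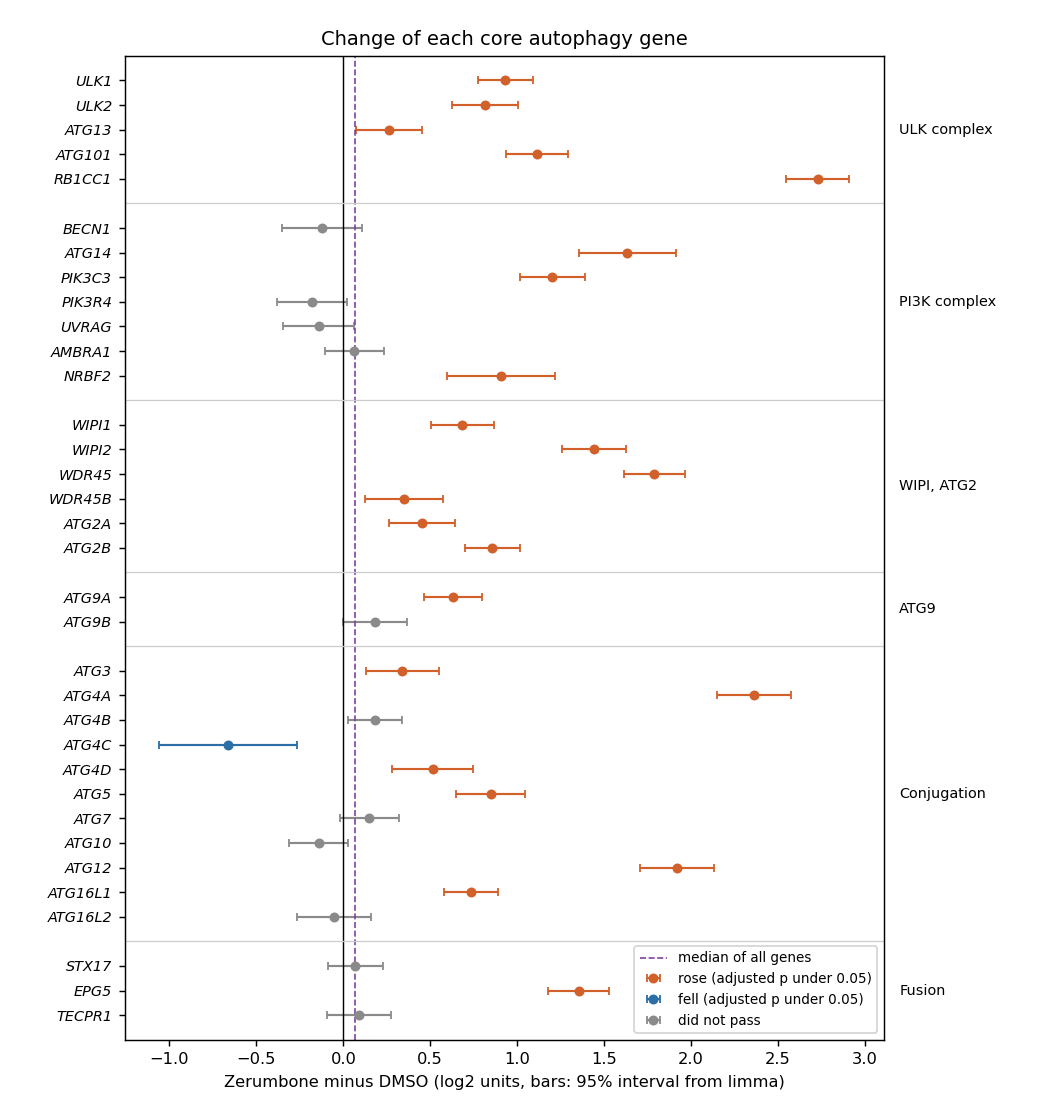
Zerumbone minus DMSO difference in log2 units (x axis) of each measured core autophagy gene (rows, grouped by step), with the 95% interval from limma as bars. Colours mark genes that rose, fell or did not pass, and the dashed line is the median of all genes at 0.07; all members of the ULK complex and of the WIPI and ATG2 step lie to its right.

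The promoter windows, from 250 bases before to 50 after each start, were searched on both strands for 6 elements. RefSeq windows were found for 30 of the 36 members, with 36 windows because 6 members have more than 1. RB1CC1, UVRAG, WDR45B, ATG4D, STX17 and EPG5 had no entry in the table. The E-box core CACGTG was found in 3 windows (8.33%), of ATG14, ATG3 and NRBF2, against 7.26% of all 35116 windows. Its longer form TCACGTGA, which contains that core, was found in 2 windows (5.56%), of ATG3 and NRBF2, against 0.980% of all. The core was in 3 of 21 windows of genes that rose and 0 of 12 of measured genes that did not, a difference that was not tested, and the call of ATG3 was not kept in 5 of 11 alternatives. In ATG14 the core starts 21 bases before the start site.

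The other 4 elements were found at shares below those of all windows. The C/EBP-ATF element TGATGNAA, bound by ATF4 with its partners, was in 1 window (2.78%), of WDR45, against 3.62% of all. The heat shock element TTCNNGAA was in 2 windows (5.56%), of ATG3 and PIK3R4, against 7.74%. The antioxidant element TGACNNNGC was in 4 windows (11.1%), of ATG101, TECPR1 and a pair of overlapping windows of ATG9B, against 13.3%. The FOXO element GTAAACA was in 1 window (2.78%), of WDR45, against 3.42%. These matches describe the letters in these windows and are not binding sites shown by any measurement here.

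The ATG8 proteins are the substrates of the conjugation step. Of 7 ATG8 family genes 5 rose and 0 fell, with a median difference of 0.99. The share called higher was 18.4% of all genes and 30.7% of genes above background. The share called lower was 17.7% of all genes and 33.0% of genes above background. GABARAPL1 rose by 5.24 and MAP1LC3B by 4.39, while GABARAP differed by 0.16 (limma adjusted p = 0.170) and GABARAPL2 rose by 0.99. MAP1LC3B2 rose by 2.12, but it is a near-identical copy of MAP1LC3B, so probes could read both. MAP1LC3A passed while under the background limit on 3 of 4 arrays, so no size is given, and its call was lost without DMSO replicate 2 (adjusted p 0.0528). MAP1LC3C was at background level.

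Upstream of ULK1, genes of the inhibitory kinase complex mTORC1 and of the activating kinase AMPK went both ways. Of 15 genes 6 rose and 4 fell, with a median of 0.08, close to that of all genes. DEPTOR and PRKAG3 were at background level, and of genes above background 30.7% were called higher and 33.0% lower, so the count of falls is near the background. In mTORC1, RPTOR, the subunit of mTORC1 that recruits its substrates, went from 8.20 ± 0.041 to 6.54 ± 0.013 (SD, n = 2 each), a 3.17-fold fall, and the kinase MTOR fell by 0.58. AKT1S1 (PRAS40), an inhibitor within that complex, rose by 1.96. Of the genes that regulate mTORC1, its activator RHEB rose by 0.72, while TSC1 rose by 1.46 and TSC2 fell by 0.66. TSC1 and TSC2 are parts of 1 inhibitor of RHEB. In AMPK the catalytic subunit PRKAA1 fell by 0.66, and the regulatory subunits PRKAB1 and PRKAG2 rose by 0.99 and 0.41. PRKAG2 was under the background limit on 1 DMSO array, so the size of its rise is uncertain. PRKAB2, another regulatory subunit of AMPK, rose from 9.19 ± 0.054 to 11.82 ± 0.032 (SD, n = 2 each), a 6.22-fold change. The limma adjusted p-values of these 10 genes were at most 0.00834, and PRKAG2 lost its call without DMSO replicate 2 (0.0690).

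Among 13 partners of Beclin 1 and genes of PI3P turnover 8 rose and 3 fell, with a median of 0.34 against 0.07 for all genes. BCL2 and RUBCNL were at background level. Of genes above background 30.7% were called higher and 33.0% lower, so the count of falls is near the background. ZFYVE1 (DFCP1), a PI3P-binding protein that marks the sites where autophagosomes form, rose by 2.20, the ubiquitin ligase TRAF6 by 1.55 and the PI3P kinase PIKFYVE by 1.34. Of 11 measured tethering and fusion partners 5 rose and 0 fell, beside 30.7% of genes above background called higher and 33.0% called lower. Their median was 0.37, led by the SNARE YKT6 (1.27) and the HOPS tether subunits VPS11 (0.77) and VPS39 (0.66). The limma adjusted p of these 6 was at most 0.00215. The plot of the members beside these lists shows the ATG8 genes reaching furthest up and RPTOR furthest down.

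**Figure D4:**
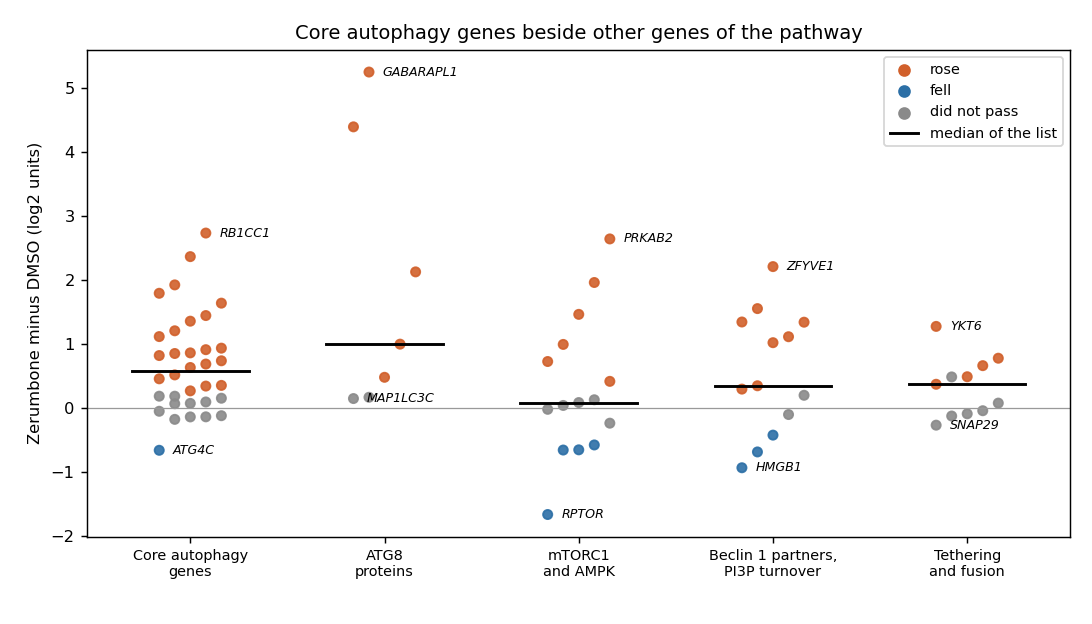
Zerumbone minus DMSO difference in log2 units (y axis) of the 34 measured core autophagy genes and of 4 other lists of the pathway (x axis); each point is a gene, coloured by whether it rose, fell or did not pass, black lines are list medians, and the highest and lowest gene of each list is named. The medians are 0.57 for the core genes, 0.99 for the ATG8 proteins and 0.08 for mTORC1 and AMPK.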

How the data were processed

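The authors deposited log2 expression values, 1 per transcript cluster and array, for which the submitters' processing notes name RMA and the Affymetrix Expression Console, without versions. RMA subtracts background and equalises the arrays, so differences are relative to the other transcripts. The genome build is not given in the sources used here. Of 70523 rows, 67528 are transcript clusters, and 23781 of these carry 1 gene symbol in the platform annotation, giving 22465 genes.

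From these values, limma 3.58.1 under R 4.3.3 was run (lmFit and eBayes, 2 residual and 2.88 prior degrees of freedom, Benjamini-Hochberg adjustment over all genes, two-sided). It was tested on simulated data. Replicates were numbered in order of deposit and are not paired, and the labels give no batch. Promoter windows are RefSeq's (GRCh38.p14). Plots were drawn with matplotlib 3.10.9. All members are named, with the 3 largest called changes of each context list and all ATG8 genes. The other called mTORC1 and AMPK genes, the cell type markers and the ATG14 and UVRAG pair were named outside that rule, after their values were seen. Members, gene lists and motifs were chosen with earlier results of these data known. The closing section gives the alternatives tried, 1 of them (centring over all transcript clusters) chosen after seeing the data.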

Additional observations from a re-analysis of the deposited data

How the results depend on the processing

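The fit was repeated under 11 alternatives. The number of members that rose, 22, was 21 with arrays centred on their gene medians, 20 with cyclic loess, 19 with arrays centred over all transcript clusters, 19 with all transcript clusters tested and from 17 to 21 without 1 array. The number that fell, 1, was 0 with all transcript clusters tested and from 0 to 1 without 1 array. Of the 23 called members 17 kept their call and direction in all 11, and the exceptions were ATG13, ATG3, WDR45B, ATG4C, ATG2A and ATG4D. Among members that did not pass, AMBRA1 and STX17 changed sign after centring over all transcript clusters (-0.025 and -0.020), and ATG16L2 ranged from -0.12 to 0.011 without 1 array, above 0 without DMSO replicate 2 (0.0038) or zerumbone replicate 2 (0.011). The cause of these changes was not tested. That centring also moved the share of higher genes among all calls from 51.0% to 41.0% and the median of all genes from 0.07 to -0.02. The count of all genes called higher, 4125, was 2868 with all transcript clusters tested, 2557 without DMSO replicate 1 and 2687 without DMSO replicate 2. Without 1 array, the lone array of a group is assumed to vary like the others. ATG9B and ATG16L2 have no value with background genes left out. Genes near background, such as ATG10, ATG4B, ATG4D, TECPR1 and ATG2A, have little signal from which a change could be read.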
